A study of Mus musculus with 2 samples.

Results

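Interferon-stimulated genes were followed in RNA-seq libraries of mouse cavernous endothelial cells (MCECs) in culture, the cells that line the blood spaces of the penis. The set holds 35 genes known to be induced by type I or type II interferon, picked by their symbols, among 23183 gene symbols in the data. It was chosen with earlier results of these data known, so its counts are no independent evidence. All 35 genes were found. They comprise 28 genes usually assigned to type I interferon (22 effectors, 3 sensors of viral RNA and 3 transcription factors) and 7 genes usually assigned to type II interferon (6 GTPases and Irf1).

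The comparison was between MCECs given pericyte-derived extracellular vesicle-mimetic nanovesicles (HG+PC-NVs) and MCECs given the HEPES-buffered vehicle (HG+HBS). Both cultures were kept in 30 mM glucose, the high-glucose condition (HG) that stands for diabetes in this study. PC-NVs were made by forcing cultured pericytes of the mouse cavernous tissue through membranes and were given at 1 µg/mL for 24 hours. By the methods, RNA was taken after 72 hours of high glucose, whereas the sample labels give 5 days. The MCECs were primary cells of 8-week-old male C57BL/6J mice, no engineered allele is named for them, and the label of the source is cavernous tissue. How many mice or cultures stand behind a library is not given in the sources used here. With a single library on each side, the spread between cultures is not known and no difference was tested. Intervals given here are 95% Wilson intervals and reflect the counting of fragments alone. The libraries held an estimated 13400000 fragments (HG+HBS) and 11700000 fragments (HG+PC-NVs).

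The labelled cell type was checked against its defining genes. Levels are in FPKM, fragments per unit of transcript length and of sequencing depth. Of 12 endothelial markers, 4 reached a mean of 1 FPKM, namely Esam (17.4 with HBS and 11.7 with PC-NVs), Egfl7 (9.48 and 8.58), Cdh5 (5.05 and 5.73) and Flt1 (1.19 and 0.835). Pecam1 was at 1.05 and 0.938 FPKM, and Kdr, Tek, Tie1, Vwf, Erg, Emcn and Cldn5 were each below 1 FPKM in both libraries. All 8 fibroblast markers reached a mean of 1 FPKM, with Thy1 at 549 and 412 FPKM and Pdgfra at 149 and 129 FPKM. The sum over the fibroblast markers was 2004 and 2326 FPKM, against 36.4 and 29.4 FPKM for the endothelial markers, so the defining markers of endothelial cells were low in both libraries. Dcn alone raised the fibroblast sum, at 623 and 1283 FPKM. The other 7 fibroblast markers had ratios below 0, among them Col1a2 (log2 ratio -0.65), Col3a1 (-0.35), Lum (-0.31) and Postn (-0.24), and the median of the list was -0.28.

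Type I interferons bind the receptor of Ifnar1 and Ifnar2 and act through the kinases Jak1 and Tyk2. This leads to ISGF3, a complex that holds Stat2 and Irf9 and binds the interferon-stimulated response element (ISRE). Type II interferon, encoded by Ifng, binds Ifngr1 and Ifngr2, and signals through Jak1 and Jak2 to the gamma-activated site (GAS). Many target genes answer to both types, so the division into type I and type II genes is one of habit, and in endothelial cells both programmes are known from antiviral defence and inflammation.

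The ISRE, the element bound by ISGF3, is shown first, though its core was not found in all of these genes. Its core was searched as GAAA, then NN, then GAAA, on both strands, in the RefSeq promoters of GRCm38.p6, which run from 250 bases before to 50 bases after each start. Of the 35 genes, 26 had a promoter in that table, and 14 of these held at least 1 core. The sequences below, credited to RefSeq, are written on the strand of the gene and hold bases upstream of the annotated gene. Capitals mark the bases of the matched ISRE cores, where a core on the opposite strand reads TTTC, then NN, then TTTC. Isg15 (chr4:156200855-156200916, minus strand), Bst2 (chr8:71537567-71537622, minus strand) and Oas1a (chr5:120907526-120907565, minus strand) are shown as type I effectors that were at least 1.5-fold higher in HG+PC-NVs. Ifit1 (chr19:34640765-34640833, plus strand) and Ifit3 (chr19:34583387-34583436, plus strand) are shown as type I effectors with smaller ratios, and Gbp3 (chr3:142559979-142560025, plus strand) and Igtp (chr11:58199502-58199551, plus strand) as GTPases.
Isg15: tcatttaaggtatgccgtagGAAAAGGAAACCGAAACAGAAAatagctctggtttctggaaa
Bst2: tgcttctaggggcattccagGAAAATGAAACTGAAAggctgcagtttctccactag
Oas1a: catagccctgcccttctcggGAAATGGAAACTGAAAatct
Ifit1: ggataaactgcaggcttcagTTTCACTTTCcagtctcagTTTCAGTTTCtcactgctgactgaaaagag
Ifit3: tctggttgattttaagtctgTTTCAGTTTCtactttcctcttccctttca
Gbp3: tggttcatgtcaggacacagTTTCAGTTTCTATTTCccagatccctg
Igtp: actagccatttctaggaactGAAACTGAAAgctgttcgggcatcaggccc
Isg15 holds 3 overlapping cores in 1 run, and Bst2, Oas1a and Gbp3 hold 2 each. Ifit1 holds 2 cores that stand apart. Ifit3 has 2 as well, at -156 and -122 bases from the start, and the stretch shown holds the latter.

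The 35 genes were mostly somewhat higher in HG+PC-NVs. Ratios are given as log2((FPKM + 1) in HG+PC-NVs / (FPKM + 1) in HG+HBS), with the deposited rows of a symbol summed, and a gene was called higher or lower when this ratio passed 1.5-fold. Of the 35 genes, 33 had a ratio above 0, against 48.4% of the 11828 genes with a mean of at least 1 FPKM. By the 1.5-fold rule, 9 of 35 (25.7%) were higher, where 5.47% of all genes tested were, and 0 were lower, where 3.64% of all genes tested were. At 2-fold, 1 of 35 was higher (Zbp1), where 2.47% of all genes tested were. The 1.5-fold threshold was set knowing from earlier results of these data that the list moved by less than 2-fold. Its count is thus no independent evidence either. The median log2 ratio of the 35 genes was 0.36, beside -0.01 for all genes tested and 0.14 for 12 housekeeping genes, whose own ratios ran from -0.31 (Tbp) to 0.85 (Pgk1).

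The genes were expressed in the vehicle culture as well. Every one of the 35 was at 1.34 FPKM or more in both libraries, and all 35 passed the filter on low values. Their median level was 32.4 FPKM with HBS and 40.6 FPKM with PC-NVs, against 11.2 and 11.4 FPKM for all genes tested. Their summed level was 3952 FPKM with HBS and 5198 FPKM with PC-NVs, of which Ifitm3 alone gave 64.1% and 61.2%. Without Ifitm3 the sums were 1418 and 2016 FPKM. In bulk RNA of this kind, more cells that express a gene and more RNA per cell cannot be told apart.

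**Figure D1:**
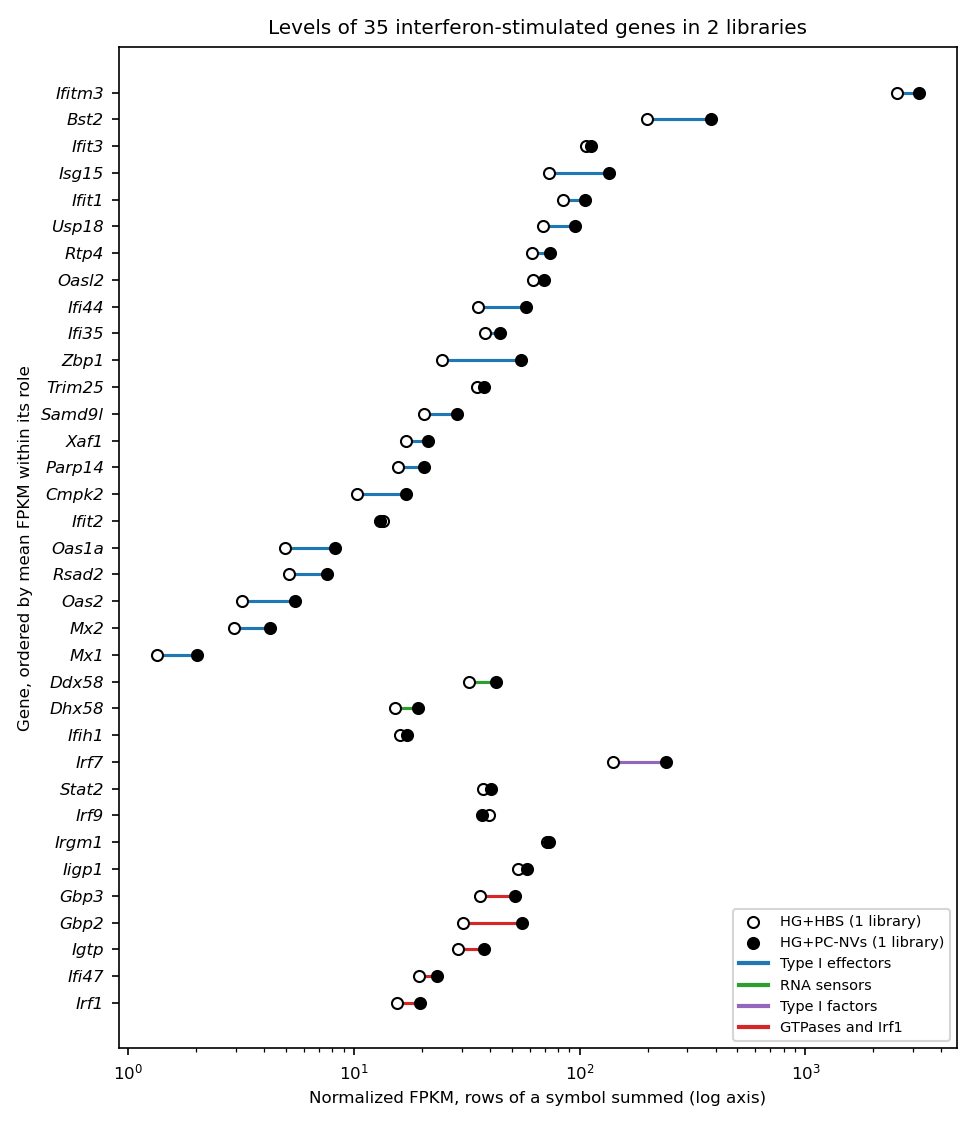
Level of each of the 35 genes in normalized FPKM on a log axis, with open points for the HG+HBS library and filled points for the HG+PC-NVs library, grouped by role. Levels run from 1.34 FPKM for Mx1 to 3182 FPKM for Ifitm3, and the filled point lies to the right of the open one for all genes but Ifit2 and Irf9. Under quantile normalization Ifitm3 and Irgm1 also turn.

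Among the type I effectors, 7 of 22 were at least 1.5-fold higher in HG+PC-NVs (5.47% of all genes tested were) and 21 had a ratio above 0 (48.4% of all genes tested did). Their median log2 ratio was 0.39. Zbp1, a sensor of Z-form nucleic acids that can start necroptosis (chr2:173206612-173218923, minus strand), was at 24.45 FPKM with HBS and 55.1 FPKM with PC-NVs. Its log2 ratio was 1.14, and without a pseudocount the fold was 2.25 (95% Wilson interval 1.94 to 2.62). A ratio at least as high was found in 1.95% of all genes tested. Zbp1 had 2 deposited rows, which moved alike, with log2 ratios of 1.06 and 1.29.

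Bst2 and Isg15 combined a high level with a high ratio. Bst2, or tetherin, holds budding enveloped viruses at the cell surface (chr8:71534255-71537456, minus strand) and was at 198.8 FPKM with HBS and 382.9 FPKM with PC-NVs, which gave a log2 ratio of 0.94 and a fold of 1.93 (1.82 to 2.03). Isg15, a ubiquitin-like protein that is joined to other proteins (chr4:156199424-156200818, minus strand), was at 73.3 FPKM with HBS and 135.5 FPKM with PC-NVs, a log2 ratio of 0.88 and a fold of 1.85 (1.685 to 2.02). The counting intervals of Zbp1, Bst2 and Isg15 all lay above 1.5-fold. Usp18, the protease that takes Isg15 off its targets and also restrains signalling at the type I receptor, was at 68.7 and 95.05 FPKM, with a fold of 1.38 (1.30 to 1.48) that lay below 1.5.

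Ifi44, an interferon-induced protein of the cytoplasm (chr3:151730922-151749960, minus strand), was at 35.3 FPKM with HBS and 58.0 FPKM with PC-NVs. Its fold was 1.64 (1.53 to 1.76). Cmpk2, a mitochondrial nucleotide kinase (chr12:26469204-26479837, plus strand), was at 10.3 and 17.0 FPKM, with a fold of 1.66 (1.47 to 1.87). Its neighbour Rsad2, or viperin, which makes a chain-terminating nucleotide, lies 12751 bp away. Rsad2 was at 5.16 and 7.63 FPKM, with a fold of 1.48 (1.254 to 1.73), so that the intervals of these neighbours overlapped.

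The 2′-5′ oligoadenylate synthetases make the messenger that activates RNase L. Oas2 (chr5:120730333-120749853, minus strand) was at 3.17 FPKM with HBS and 5.49 FPKM with PC-NVs, with a log2 ratio of 0.64. Oas1a (chr5:120896256-120907521, minus strand) was at 4.95 and 8.21 FPKM, with a log2 ratio of 0.63. Both were called higher, but from few fragments. Oas2 rested on about 165 and 248 fragments, and its fold of 1.73 had an interval that held 1.5 (1.42 to 2.10). The fold of Oas1a was 1.66 (1.32 to 2.08). Of the 50-base words of Oas1a, 57.6% also occur in Oas1g, so its reads may have been divided with that gene, which was itself at 0.790 and 1.32 FPKM. Oasl2, a related protein that binds RNA, was at 62.0 and 69.5 FPKM, a fold of 1.12 (1.06 to 1.19).

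The Ifit genes, whose proteins bind foreign RNA ends and block translation, did not share a ratio. Ifit1 was at 84.0 FPKM with HBS and 105.9 FPKM with PC-NVs, a fold of 1.26 (1.20 to 1.33). Ifit3 was at 106.5 and 112.7 FPKM, a fold of 1.06 (1.00 to 1.12). Ifit2 was at 13.5 and 13.1 FPKM, a fold of 0.968 (0.868 to 1.08). None of the 3 passed 1.5-fold, and the intervals of Ifit2 and Ifit3 held 1. Ifit3 shares 51.2% of its 50-base words with Ifit3b, which was at 34.2 and 32.6 FPKM, so the values of both are uncertain.

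Ifitm3, a membrane protein that hinders viral fusion (chr7:141009586-141010770, minus strand), was by far the most abundant of the 35. It stood at 2533 FPKM with HBS and 3182 FPKM with PC-NVs, rank 10 and rank 13 of all genes. Its log2 ratio of 0.33 turned to -0.15 when the libraries were quantile normalized, so its direction depended on the scaling. Its counting interval was narrow (fold 1.26, 1.23 to 1.28), which covers fragments and not the scaling.

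The Mx genes were the lowest of the 35. Mx1, a dynamin-like GTPase known to be non-functional in C57BL/6 mice, was at 1.34 FPKM with HBS and 2.02 FPKM with PC-NVs, on about 48.3 and 63.6 fragments. Its interval was wide (fold 1.51, 1.05 to 2.22). Mx2, a polymorphic pseudogene in the GENCODE annotation, was at 2.94 and 4.26 FPKM, with a fold of 1.45 (1.11 to 1.89). Neither was called, and for Mx1 the added 1 FPKM brought the log2 ratio to 0.37, as it does most for low genes.

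The other 6 type I effectors lay between log2 ratios of 0.11 and 0.48. Samd9l, which limits translation and growth, was the highest of them, at 20.4 FPKM with HBS and 28.7 FPKM with PC-NVs (log2 ratio 0.48), a fold of 1.41 (1.32 to 1.51). Parp14, an ADP-ribosyltransferase, was at 15.7 and 20.5 FPKM (0.36), and Xaf1, a pro-apoptotic partner of XIAP, was at 17.1 and 21.2 FPKM (0.30). The interval of Xaf1 held 1 (fold 1.24, 0.991 to 1.55), with fragments reckoned from its shortest transcript, of 651 nt. Rtp4, a receptor transporter protein, was at 61.6 and 73.9 FPKM, a fold of 1.20 (1.11 to 1.29). Ifi35, an interferon-induced leucine zipper protein, was at 38.0 and 44.3 FPKM, a fold of 1.17 (1.05 to 1.30). Trim25, the ubiquitin ligase that acts with RIG-I, was at 35.1 and 37.85 FPKM, a fold of 1.08 (1.02 to 1.14) and the smallest of the 6.

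None of the 3 RNA sensors passed 1.5-fold. Ddx58, which encodes RIG-I, was at 32.4 FPKM with HBS and 42.4 FPKM with PC-NVs, a fold of 1.31 (1.23 to 1.40). Ifih1, which encodes MDA5, was at 15.9 and 17.2 FPKM, a log2 ratio of 0.10. Dhx58, which encodes the regulator LGP2, was at 15.2 and 19.3 FPKM, a log2 ratio of 0.32. The interval of Ifih1 held 1, while those of Ddx58 and Dhx58 lay above 1 and below 1.5.

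The 3 transcription factors differed from each other. Irf7, the factor that amplifies type I interferon genes (chr7:141262706-141266481, minus strand), was at 140.3 FPKM with HBS and 241.0 FPKM with PC-NVs. Its fold was 1.72 (1.64 to 1.79), and each of its 3 deposited rows was higher in HG+PC-NVs, with log2 ratios of 0.68, 0.98 and 0.65. The partners in ISGF3 did not show this. Stat2 was at 37.2 and 40.6 FPKM, a fold of 1.09 (1.03 to 1.16). Irf9 was at 39.7 and 36.8 FPKM, a fold of 0.928 (0.854 to 1.01), and its 3 rows differed in sign (-0.58, 0.14 and -0.20), so its direction depended on the rows used. With its highest row in place of the sum, the log2 ratio of Irf9 was 0.14.

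Of the 7 GTPase and type II genes, 1 was at least 1.5-fold higher, beside 5.47% of all genes tested, and all 7 had a ratio above 0 in the deposited values. Gbp2, a guanylate-binding protein that coats the vacuoles of intracellular microbes (chr3:142620602-142638008, plus strand), was at 30.4 FPKM with HBS and 55.2 FPKM with PC-NVs. Its log2 ratio was 0.84, a fold of 1.82 (1.68 to 1.96). Gbp3, of the same family, was at 36.1 and 51.9 FPKM, a fold of 1.44 (1.34 to 1.55). The interval of Gbp2 lay above 1.5-fold and that of Gbp3 held it. The rows of Gbp3 differed in sign, with a row at 1.66 and 0.701 FPKM, one at 23.1 and 31.0 FPKM, and one at 11.3 and 20.2 FPKM.

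The immunity-related GTPases (IRG), which act on the same vacuoles, had smaller ratios. Igtp was at 29.0 FPKM with HBS and 37.6 FPKM with PC-NVs, a fold of 1.30 (1.18 to 1.425). Ifi47 was at 19.3 and 23.4 FPKM, a fold of 1.21 (1.06 to 1.38). Ifi47 gained from a row that went from 0.00381 to 3.57 FPKM, while its main row stayed at 19.3 and 19.6 FPKM. Iigp1 was at 53.2 and 58.7 FPKM, a fold of 1.10 (1.04 to 1.17), as the sum of a row with a log2 ratio of -0.69 and a row with 0.35. Irgm1 was at 71.5 and 73.4 FPKM (0.04, and -0.03 under quantile normalization), with an interval that held 1 (fold 1.03, 0.963 to 1.09). Igtp shares 12.3% of its 50-base words with Irgm2. Irf1, the transcription factor of the type II response, was at 15.5 and 19.6 FPKM, a fold of 1.27 (1.11 to 1.44).

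**Figure D2:**
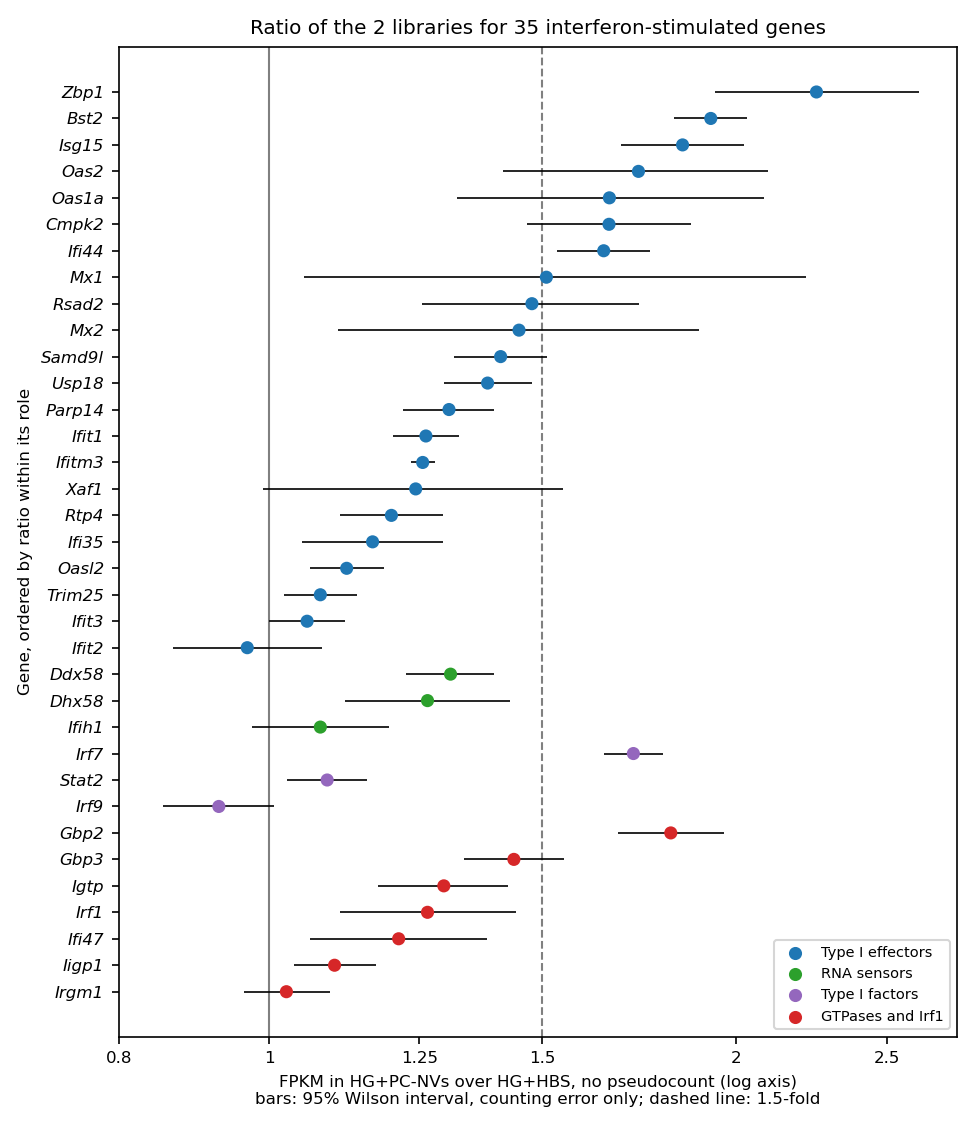
Ratio of FPKM in HG+PC-NVs over HG+HBS for each of the 35 genes, with no pseudocount and on a log axis, with bars for the 95% Wilson interval (counting error) and a dashed line at 1.5-fold. The intervals of 29 genes lie above 1, 6 hold 1 and 0 lie below it, and the intervals of 6 genes lie wholly above 1.5-fold. The share of such intervals over all genes was not computed, and some housekeeping genes also have intervals above or below 1. The direction of Ifitm3 and Irgm1 turns under quantile normalization, and that of Irf9 when its highest row is used.

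By counting error alone, 29 of the 35 intervals lay above 1, 6 held 1 and 0 lay below 1. The share of such intervals over all genes was not computed. Some housekeeping genes also had intervals off 1, on both sides. Gapdh (fold 1.33, 1.30 to 1.35) and Hprt (1.20, 1.09 to 1.32) lay above 1, and Tbp (0.788, 0.729 to 0.850) and Sdha (0.870, 0.826 to 0.916) below it. Against 1.5-fold, 6 intervals lay above, 9 held it and 20 lay below. The 6 genes wholly above 1.5-fold were Zbp1, Bst2, Isg15, Gbp2, Irf7 and Ifi44. The 9 called genes had levels from 3.17 FPKM (Oas2) to 198.8 FPKM (Bst2) in HG+HBS. Across the 35 genes, the log2 ratio had a Pearson's r of -0.02 and a Spearman's rho of -0.11 with the log2 level in HG+HBS, -0.35 and -0.15 with log2 transcript length, and 0.28 and 0.24 with GC content. These are descriptions across genes that share both libraries.

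The type I genes and the GTPase and type II genes overlapped in their ratios. The 28 type I genes had a median log2 ratio of 0.37, quartiles of 0.20 and 0.63 and a range of -0.10 to 1.14. The 7 others had a median of 0.32 and a range of 0.04 to 0.84, inside that of the type I genes. The medians differed by -0.05 (GTPase and type II minus type I), or by -0.01 over genes with a mean of at least 5 FPKM and -0.02 with the highest row of each gene. Of the type I genes 8 (28.6%) were called higher and of the others 1 (14.3%), beside 5.47% of all genes tested. The quartiles of all genes tested were -0.17 and 0.16, and the lower quartile of the type I genes lay above the latter. Both groups come from the same pair of libraries, so the difference between them was not tested.

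**Figure D3:**
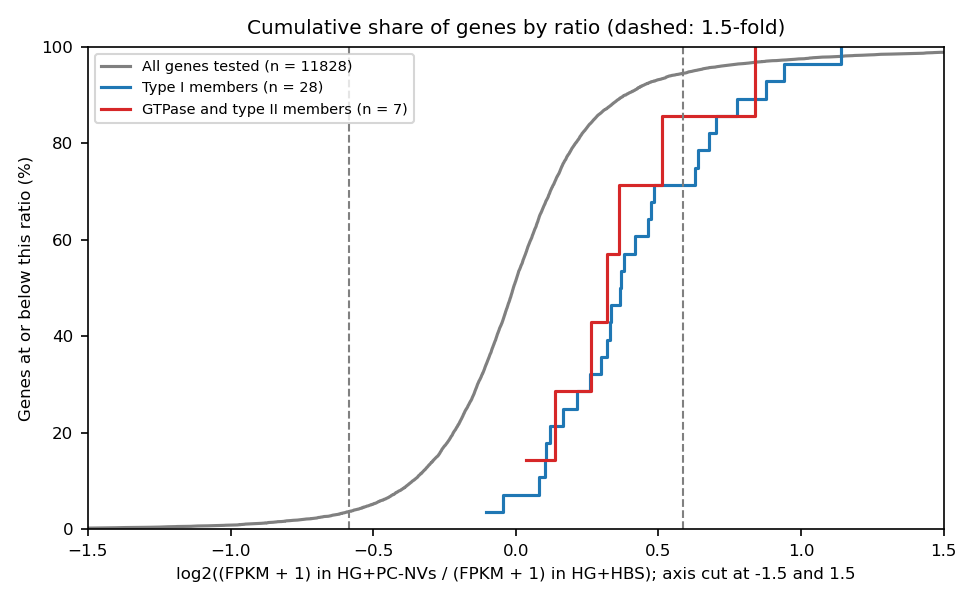
Cumulative share in percent of genes at or below a given log2((FPKM + 1) / (FPKM + 1)) of HG+PC-NVs over HG+HBS, for all 11828 genes tested, the 28 type I genes and the 7 GTPase and type II genes, with dashed lines at 1.5-fold in both directions. The curves of both groups run to the right of the curve of all genes, with medians of 0.37 and 0.32 against -0.01.

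The other genes of the pathway were taken from lists, given from ligand to target. The ligands of the receptors were hardly detected. Of 22 interferon and related ligand genes, 17 were listed at 0 in both libraries, and the highest value of any was 0.518 FPKM, for Ifne in HG+PC-NVs. Ifnb1 was at 0.000121 FPKM with HBS and 0.280 FPKM with PC-NVs, the latter worth about 2.46 fragments, which is under the floor of 3 and allows no fold. Ifng was listed at 0 in both libraries. Interferon that these cells or other sources released is not measured by these values.

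The receptors were present. Ifnar1 was at 14.9 FPKM with HBS and 16.6 FPKM with PC-NVs, and its partner Ifnar2 at 40.3 and 59.0 FPKM, a log2 ratio of 0.54. Ifngr1 was at 67.2 and 57.6 FPKM (-0.22), whereas Ifngr2 was at 52.2 and 72 FPKM (0.46). The chains of a receptor thus differed from each other in ratio. The kinases were lower or level, with Jak1 at 86.1 and 75.6 FPKM, Jak2 at 16.6 and 16.5 FPKM and Tyk2 at 9.61 and 8.73 FPKM. Of 10 receptor and JAK-STAT genes tested, 0 were called higher or lower at 1.5-fold, and their median log2 ratio was 0.09.

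Of 7 negative regulators, 1 was called higher, where 5.47% of all genes tested were. This was Socs3, an inhibitor of JAK signalling best known downstream of the gp130 cytokines, at 41.1 FPKM with HBS and 70.9 FPKM with PC-NVs (log2 ratio 0.77). Socs1, the inhibitor more specific to interferon signalling, was at 9.78 and 11.7 FPKM (0.23). The phosphatases Ptpn2, Ptpn6 and Ptpn11 had log2 ratios of 0.55, 0.43 and 0.21, and Pias3 one of -0.29.

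Of 13 genes tested in the pathway that induces interferon, 3 were called higher, beside 5.47% of all genes tested, and the median log2 ratio was 0.27. Ikbke, a kinase of Irf3 and Irf7, was at 15.4 FPKM with HBS and 28.3 FPKM with PC-NVs. Tank, an adaptor of that kinase, was at 15.6 and 27.0 FPKM, and Traf3, an adaptor upstream of it, at 4.29 and 7.71 FPKM. Tmem173, which encodes STING, went the other way, at 63.1 and 47.2 FPKM (-0.41). The receptors Tlr4 and Tlr3, which sense lipopolysaccharide and double-stranded RNA, had log2 ratios of 0.53 and 0.32.

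Type I targets outside the 35 genes were mostly slightly higher too. Of 41 tested, 34 had a ratio above 0 and 4 (9.76%) were called higher, beside 5.47% of all genes tested, with a median log2 ratio of 0.28. The 4 were Slfn2 (117 FPKM with HBS and 233 FPKM with PC-NVs), a schlafen protein of immune cells, Ifitm1 (3.35 and 7.02 FPKM) and Ifitm2 (1153 and 1748 FPKM), relatives of Ifitm3, and Oasl1 (13.1 and 21.3 FPKM). Slfn8 and Mnda followed at log2 ratios of 0.53 and 0.50, within 1.5-fold. Pml, the organiser of nuclear bodies, had the lowest ratio, at 40.3 and 29.8 FPKM (-0.42).

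Of 13 other GTPase and type II targets tested, 6 were called higher, beside 5.47% of all genes tested, with a median log2 ratio of 0.38. Cxcl10, a chemokine for T cells, was at 16.0 FPKM with HBS and 40.8 FPKM with PC-NVs, a log2 ratio of 1.30. Cxcl9, of the same chemokine group and a gene that answers mainly to type II interferon, was at 0.756 and 2.47 FPKM (0.98). Gbp6 was at 8.32 and 21.01 FPKM (1.24), Gbp5 at 1.11 and 2.93 FPKM (0.90) and Gbp9 at 13.0 and 20.4 FPKM (0.62). Nlrc5, which drives transcription of MHC class I genes, was at 2.51 and 4.44 FPKM (0.63). Irf8 was at 2.39 and 1.77 FPKM (-0.29).

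The families of GTPases were then set side by side with the genes of both lists, a split made after the values were seen. Of 9 guanylate-binding proteins (GBP), 6 were tested. They had a median log2 ratio of 0.73, from 0.25 for Gbp7 to 1.24 for Gbp6. At least 1.5-fold higher were 4, or 3 under upper-quartile scaling, beside 5.47% of all genes tested. The untested GBP genes were low and went both ways, with Gbp8 at 0.392 and 0.140 FPKM, Gbp4 at 0.176 and 0.517 FPKM and Gbp10 at 0.0412 and 0.0952 FPKM. The 8 tested IRG genes had a median of 0.20, from 0.04 to 0.36, and 0 passed 1.5-fold. Under quantile normalization the medians were 0.69 and 0.16, and the lowest IRG value, of Irgm1, was -0.03. The split rests on values of 1 pair of libraries and was not tested.

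MHC class I genes, which both interferon types and NF-kB are known to induce, were listed together with genes that process and load their peptides. The 13 genes of that list had a median log2 ratio of 0.67. At 1.5-fold, 8 of 13 were called higher, or 5 under quantile normalization, beside 5.47% of all genes tested. H2-K1, a classical class I heavy chain, was at 151.5 FPKM with HBS and 425.6 FPKM with PC-NVs (1.48). The heavy-chain genes H2-Q4, H2-Q7, H2-D1 and H2-T23 had log2 ratios of 1.36, 1.06, 0.79 and 0.76. B2m, the light chain, was at 1847 and 3300 FPKM (0.84). Of the processing genes, Tapbp (0.67) and Psmb8 (0.60) were called higher in the deposited values. Erap1 (0.56), Psmb9 (0.41), Psmb10 (0.24) and Tap2 (0.004) were within 1.5-fold. So was Tap1, of the peptide transporter, at 29.6 and 26.9 FPKM (-0.14). Genes known as NF-kB targets had larger ratios, with 19 of 23 called higher, beside 5.47% of all genes tested, and a median of 1.54. That list was written with earlier results known and holds genes with some of the largest ratios in these data, such as Saa3 (7.32), Cxcl1 (6.05), Lcn2 (4.84), Slpi (3.06) and Ccl2 (2.97), so its count is no independent evidence. What part NF-kB or any interferon had in the levels of the 35 genes was not tested.

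**Figure D4:**
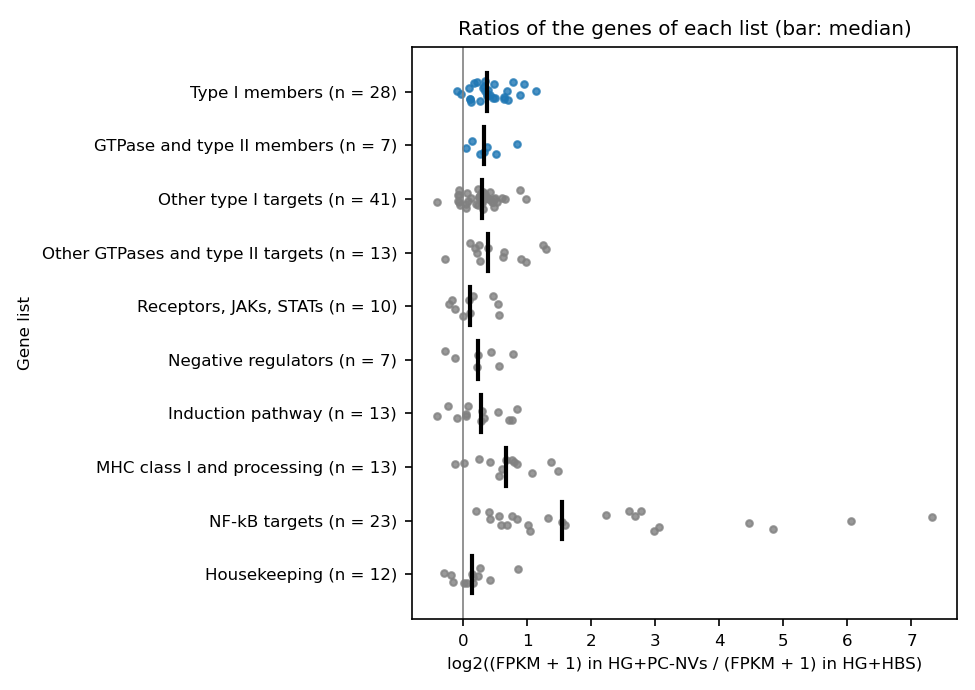
log2((FPKM + 1) / (FPKM + 1)) of HG+PC-NVs over HG+HBS for the tested genes of each list, with 1 point per gene and a bar at the median. The medians of the interferon-stimulated genes lie at 0.37 (type I) and 0.32 (GTPase and type II), above the receptor and JAK-STAT genes at 0.09. They lie below the MHC class I and processing genes at 0.67 and the NF-kB targets at 1.54.

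Markers of other cells were read beside these values. The 10 myeloid markers summed to 332 FPKM with HBS and 329 FPKM with PC-NVs. Ptprc, the pan-leukocyte marker, was at 1.44 and 1.68 FPKM and Lyz2 at 211.8 and 192.9 FPKM, but Adgre1, which encodes F4/80 of macrophages, was at 7.44 and 42.5 FPKM. The sum was level and mostly Lyz2, while its members went both ways. Adgre1 was 5.71-fold higher with PC-NVs (5.06 to 6.46), whereas Mrc1, the mannose receptor of macrophages, was at 3.76 and 1.27 FPKM (log2 ratio -1.07). Cd68 (-0.44), Csf1r (-0.38) and Ctss (-0.29) were also lower and Itgam (0.24) was higher, within 1.5-fold. Of 9 plasmacytoid and lymphoid markers, 5 (Cd3e, Cd3g, Cd8a, Nkg7 and Klrb1c) were listed at 0 in both libraries, and only Tcf4, which many cells express, reached a mean of 1 FPKM. The 10 pericyte markers summed to 130 and 102 FPKM and moved in both directions. Rgs5 was at 1.69 and 7.23 FPKM (log2 ratio 1.61), Kcnj8 at 7.98 and 20.4 FPKM (a fold of 2.56) and Abcc9 at 1.77 and 2.98 FPKM (log2 ratio 0.53). Acta2 (-1.67), Anpep (-0.91), Cspg4 (-0.70), Mcam (-0.25), Notch3 (-0.20) and Pdgfrb (-0.18) were lower with PC-NVs. Of the 9 pericyte markers tested, 6 had a ratio below 0, and their median log2 ratio was -0.20. Des, which was not tested, was at 1.07 and 0.137 FPKM. Smooth muscle or stromal cells also express markers of this list. Whether myeloid cells, fibroblast-like cells or RNA carried by PC-NVs had a part in the ratios of the 35 genes was not tested.

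The ISRE core was common in the promoters of these genes. Of the 26 genes with a promoter, 14 (53.8%) held at least 1 ISRE core, which is 14 of 30 promoters (46.7%) against 3.44% of all 32851 promoters of the same length. It was found in 10 of 20 type I genes and in 4 of 6 GTPase and type II genes. The GAS core, TTC, then NNN, then GAA, was in 7 of 30 promoters (23.3%) against 8.3% of all, and the NF-kB motif in 5 of 30 (16.7%) against 8.46% of all. In the 30 promoters 23 ISRE cores were found, of which 2 overlapped a GAS core or an NF-kB motif. These genes are textbook targets of interferon, and the shares describe the set and not a difference between the libraries.

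Genes with and without an ISRE core overlapped in their ratios. The 14 genes with a core had a median log2 ratio of 0.37 (0.04 to 0.94) and the 12 without had 0.28 (-0.10 to 0.78). Bst2 and Ifitm3 were the only genes of the 26 with all 3 motifs, and their log2 ratios were 0.94 and 0.33. Irf7, at 0.78, held none of the 3 in this window. Zbp1, with the highest ratio of the 35, was among the 9 genes with no promoter in the table used.

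**Figure D5:**
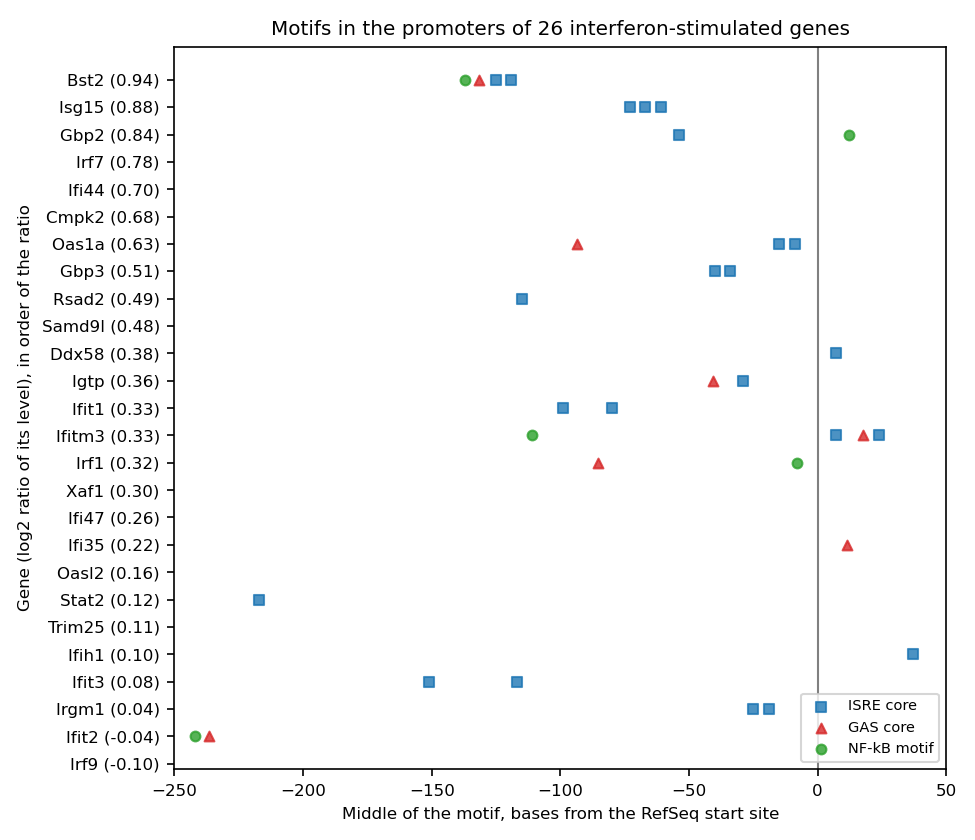
Position of ISRE cores, GAS cores and NF-kB motifs in the promoters of 26 of the genes, in bases from the RefSeq start site and in the order of the log2 ratio that stands beside each name. Motifs lie at all heights of the plot, with 14 genes holding an ISRE core. The ratio of Ifitm3 and that of Irgm1 are below 0 under quantile normalization.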

How the data were processed

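A stranded kit gave 1 library for HG+HBS and another for HG+PC-NVs. By the methods, the authors trimmed reads with FASTX_Trimmer and BBMap, mapped them with TopHat, used BEDTools for counting and Cufflinks for FPKM, and normalized in R with edgeR by quantile normalization. The submitters' processing notes name mm10, TopHat and edgeR, and tool versions are not given in the sources used here. The authors deposited log2(FPKM + 1) values in 33299 rows per library. Sorted values differed between the libraries by over 0.05 in 2318 rows and by up to 0.92.

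The deposited log2 values were converted to FPKM and summed over the rows of a symbol, and ratios were taken after adding 1. Genes with a mean of at least 1 FPKM were tested against a 1.5-fold threshold, and no p-value was computed. The worth of a fragment was estimated from the low values of 2189 genes with 1 transcript over 1500 nt, and gave approximate fragments and 95% Wilson intervals of the fold without pseudocount. Fragments of a gene were reckoned from its shortest RefSeq-linked transcript. A longer transcript would give more fragments and a narrower interval. Coordinates and transcripts came from GENCODE M21, and promoters and motifs from RefSeq (GRCm38.p6). Words of 50 bases served to find genes that share sequence. Scripts were tested on simulated data.

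The members, the lists and the 1.5-fold threshold were chosen with earlier results of these data known, and the GBP and IRG split after values were seen. All 35 genes are named. From other lists the text names up to 6 genes with the largest ratios, plus the main ligands, receptors, kinases, Socs1 and Socs3. Some genes under this rule are not reported here. Other genes (Oas1g, Ifit3b, Ifne, Tap1 and the other processing genes, Gbp4, Gbp7, Gbp8, Gbp10, Irf8 and some cell markers) were named after their values were seen. Alternatives were quantile normalization, upper-quartile scaling, median centring, a pseudocount of 0.1, no filter or a mean of 5 FPKM, the highest row of a symbol, a 2-fold threshold and Irf1 with the type I genes. The same scalings were applied to the other lists after the data were seen. The work used scipy 1.17.1, pandas 2.3.3 and numpy 2.4.6 in Python 3.11.15, with figures from matplotlib 3.10.9.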

Additional observations from a re-analysis of the deposited data

How the results depend on the processing

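No paired analysis was possible because each condition has a single library, which also means that none could be left out. Of 63 alternative values of the summaries, 58 stayed within the tolerance and 5 did not. That tolerance was 1.5 times for a count, and 0.113 on the log2 scale for a median or a difference of medians. A turn in sign was scored for the medians only, and 0 turned. Some alternatives could not move a value, such as no filter, which all 35 genes pass, or median centring for a difference of medians. For single genes, 9 of 175 alternative values moved by at least the half-width of the gene's counting interval. The count of the 35 genes called higher was 1 at a 2-fold threshold, where 292 of all genes were higher and 98 lower. Genes called lower numbered 699 with a pseudocount of 0.1 and 242 at a mean of 5 FPKM or more, against 430. The 9 called genes were the same 9 under each scaling, with the pseudocount of 0.1, with the highest row and with no filter, and 8 of them at a mean of 5 FPKM, where Oas2 fell below the filter. Of the 35 genes, 31 had a ratio above 0 under quantile normalization, where Ifitm3 was at -0.15 and Irgm1 at -0.03, and 34 with the highest row. The difference between the type I and the other medians was -0.05 as reported, -0.01 at a mean of 5 FPKM or more and -0.02 with the highest row, within that tolerance but 1.5 times or more smaller, and negative under each alternative. No scaling moved the median of all genes by 0.1. Few estimated fragments limited Mx1, Mx2, Oas1a, Xaf1 and Oas2 most. For Xaf1 the estimate used its shortest transcript, of 651 nt.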
